A study of Mus musculus with 8 samples.

Results

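The DnaJ proteins, also called Hsp40 or J-domain proteins, are the co-chaperones that bring unfolded clients to Hsp70 and start its ATPase cycle. The family was taken as all rows of the deposited gene table whose symbol is Dnaja, Dnajb or Dnajc followed by a number and at most 1 letter, with counts that sum to 15 or more over the 8 libraries. This gave 44 of the 43346 rows, with 43 distinct symbols, since Dnajc19 is listed under a pair of overlapping identifiers. By symbol, 4 rows belong to class A, 12 to class B and 28 to class C. The threshold left out Dnajb8 with 10 counts and Dnajc5g with 2, while Dnajc5b with 20 and Dnajc22 with 22 were just inside it.

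Each library came from the combined cortex and hippocampus of 1 mouse at 1.5 months of age. The control group (genotype GFP) expressed green fluorescent protein and the other (genotype GFP-GR100) expressed the same protein fused to 100 glycine-arginine repeats, each from an adeno-associated virus (AAV) vector. The labels name no promoter and no route of delivery, and the level of the transgenes was not analysed here. Each group held 4 animals, 2 females (replicates 1 and 2) and 2 males (replicates 3 and 4). Glycine-arginine repeats are a translation product of the C9orf72 repeat expansion known from frontotemporal dementia and amyotrophic lateral sclerosis.

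All J proteins share the J domain, whose conserved HPD tripeptide contacts Hsp70. Class A proteins resemble bacterial DnaJ and carry a zinc-finger region, class B proteins lack the zinc finger, and class C proteins share little beyond the J domain and serve specialised tasks. In the cytosol these proteins work with Hspa8 (Hsc70), in the lumen of the endoplasmic reticulum (ER) with Hspa5 (BiP) and in mitochondria with Hspa9. In neurons, J proteins also keep synaptic vesicle proteins folded and strip clathrin coats from vesicles.

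Total counts ran from 65880460 to 89113010 per library. Reads at Yam1, AY036118 and Lars2, called the rRNA loci here, made up 11.4% and 6.74% of counts in GFP females, 3.80% and 3.54% in GFP males, 3.20% and 2.76% in GFP-GR100 females and 8.77% and 9.83% in GFP-GR100 males. Neuronal and glial markers of the forebrain were present in all libraries. The summed level of 4 cerebellar markers was 76.5 CPM (counts scaled to a common library size with TMM factors) in GFP 2 and between 4.97 and 8.89 CPM in the other 7 libraries, so GFP 2 stood apart in tissue outside the labelled dissection. Summed excitatory neuron markers were lowest in GFP-GR100 4, at 3005 CPM against 3541 to 4693 CPM in the other libraries. Since these are bulk samples, fewer cells of a type and less RNA per cell cannot be told apart. Of 6 microglial markers 4 were called higher in GFP-GR100 by edgeR, with a summed level of 206 to 254 CPM in GFP and 328 to 349.9 CPM in GFP-GR100, with no overlap. Of 6 choroid plexus markers 1 was called lower, with a median log2 fold change of -1.57 and a summed level of 127 to 361 CPM in GFP and 31.8 to 86.8 CPM in GFP-GR100, also with no overlap. Oligodendrocyte markers had a median of -0.28 with 0 of 6 called, and their summed levels overlapped, at 6124 to 8029 CPM and 5063 to 7943 CPM. The part of these cells in the members' values was not tested. The tissue weighed 71.9 to 85.1 mg in GFP-GR100 animals and 111.4 to 126.6 mg in GFP animals.

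Promoters of 3 genes are shown because these genes include the largest fitted decreases of the family and represent the cytosolic and ER branches of the stress response. The sequences are from RefSeq on GRCm38.p6 and cover the 250 bases before the gene start, on the strand of the gene, and each ends at the base before the start listed for the gene in the deposited table. Capitals mark matches to the searched elements. Dnajb1 is the main heat-inducible Hsp40 of the cytosol (chr8:83607925-83608174, plus strand), Dnajb11 encodes the ER luminal protein ERdj3 (chr16:22857595-22857844, plus strand) and Dnajc3 encodes the ER protein p58IPK (chr14:118937682-118937931, plus strand).
Dnajb1: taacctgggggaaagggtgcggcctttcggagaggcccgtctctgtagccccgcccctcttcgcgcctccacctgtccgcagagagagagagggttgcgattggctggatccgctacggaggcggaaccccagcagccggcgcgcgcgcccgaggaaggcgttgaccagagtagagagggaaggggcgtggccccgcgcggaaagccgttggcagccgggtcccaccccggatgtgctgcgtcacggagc
Dnajb11: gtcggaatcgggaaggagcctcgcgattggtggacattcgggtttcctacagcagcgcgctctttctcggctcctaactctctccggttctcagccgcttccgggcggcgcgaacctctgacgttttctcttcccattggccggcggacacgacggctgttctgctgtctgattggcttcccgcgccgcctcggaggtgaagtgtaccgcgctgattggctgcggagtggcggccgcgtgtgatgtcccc
Dnajc3: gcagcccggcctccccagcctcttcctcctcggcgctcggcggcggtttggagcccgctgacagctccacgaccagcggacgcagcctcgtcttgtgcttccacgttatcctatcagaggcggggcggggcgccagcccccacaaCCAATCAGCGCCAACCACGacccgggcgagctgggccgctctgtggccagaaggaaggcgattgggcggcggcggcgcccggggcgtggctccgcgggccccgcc
The elements searched on both strands were the heat shock element (GAA, 2 bases, TTC, 2 bases, GAA), its shorter pairs GAANNTTC and TTCNNGAA, the ER stress element (CCAAT, 9 bases, CCACG), the ER stress element II (ATTGG, 1 base, CCACG) and the unfolded protein response element TGACGTGG. The shorter pairs lie within the heat shock element.

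Of the 43 symbols, 35 had a RefSeq promoter window, and 11 of them had more than 1, giving 48 windows. The window of Dnajc3 held the ER stress element, as the stretch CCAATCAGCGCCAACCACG between 105 and 87 bases before the start, and it was the 1 member with this match. Of 32851 windows of all genes, 0.113% held this element. The full heat shock element was found in Dnajb6 alone among the members (GAATCTTCCGGAA, 46 to 34 bases before the start in 1 of its windows and 127 to 115 in the other), against 0.466% of all windows. The facing pair GAANNTTC was also found in Dnaja1, Dnaja4 and Dnajc27, and the pair TTCNNGAA in Dnajb4 and Dnajc10, with shares of all windows of 6.69% and 7.17%. Dnajc25 held the unfolded protein response element, as did 0.563% of all windows. The ER stress element II was found in 0 member windows and in 0.0304% of all windows. The windows of Dnajb1 and Dnajb11 held none of these letters.

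The levels of the members spanned a wide range. In deposited RPKM, which is scaled by gene length and library total and so allows genes to be compared, Dnajc5 had the highest mean, followed by Dnaja2, Dnajc6, a Dnajc19 row, Dnajc27 and Dnajc15. Dnajc5 encodes cysteine string protein, the J protein of synaptic vesicles, and its level was 63.9 ± 2.68 RPKM in GFP and 63.8 ± 2.28 RPKM in GFP-GR100 (SD, n = 4). Dnaja2, a cytosolic partner of Hsc70, was at 66.1 ± 7.08 and 61.2 ± 3.42 RPKM. Dnajc6 encodes auxilin, which with Hsc70 uncoats clathrin-coated vesicles in neurons, and was at 45.0 ± 5.94 and 41.9 ± 5.22 RPKM. Within each group the spread of Dnajc5 and Dnaja2 overlapped, so that their order is not resolved.

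The lower end of the range held genes near the limit of detection. Dnajb13, which encodes a radial spoke protein of motile cilia, was at 0.288 ± 0.0979 RPKM in GFP and 0.264 ± 0.107 RPKM in GFP-GR100. Dnajb7 was at 0.0612 ± 0.0405 and 0.103 ± 0.0496 RPKM, from 67 counts in all. Dnajc5b and Dnajc22 were too low to be tested, which left 42 tested members. The summed RPKM of all 44 rows was 739.6 ± 45.7 in GFP and 703.0 ± 18.1 in GFP-GR100, and class C made up 61.0% and 63.1% of it. Class A held 16.3% and 15.6% from 4 genes, and class B 22.7% and 21.3%.

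**Figure D1:**
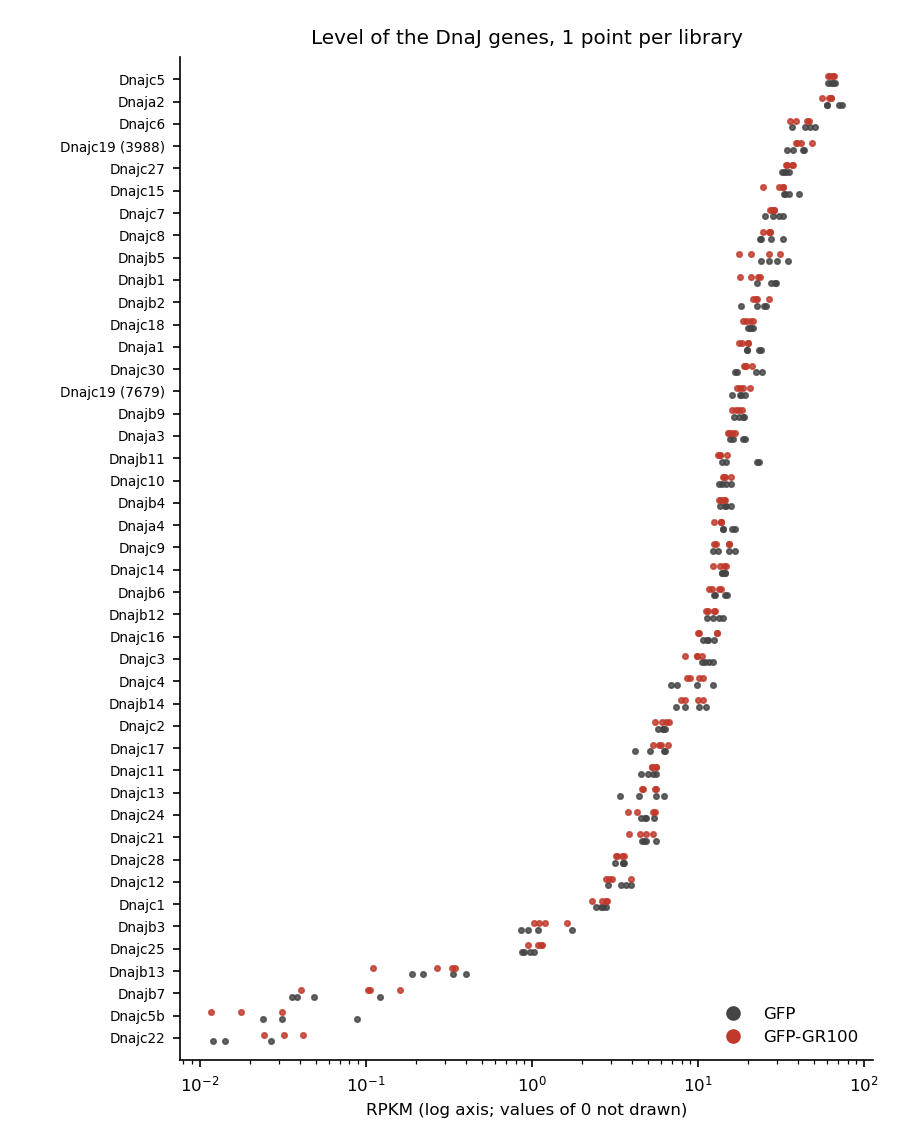
Deposited RPKM of the 44 DnaJ rows on a log axis, 1 point per library, GFP in dark grey and GFP-GR100 in red, ordered by the mean over all libraries, with values of 0 not drawn. Dnajc5 and Dnaja2 sit at the top near 64 RPKM, and the points of both groups lie close together for most genes.

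The main comparison asked which members differ between GFP-GR100 and GFP brains. No member passed the threshold, with 0 called lower and 0 called higher of 42 tested, by edgeR's quasi-likelihood test with sex in the model and Benjamini-Hochberg adjustment over 20987 genes. The background was 0.324% of all tested genes called lower and 2.19% called higher. At an unadjusted p under 0.05, 8 members were lower and 0 higher, that is 19.0% of the family against a background of 7.37% lower and 8.23% higher. DESeq2 called Dnajb1 and Dnajb11 lower and none higher, where 0.953% of all genes were called lower, and limma-voom called 0 where 0.272% of all genes were called lower. With no filter on low counts, Dnajb1, Dnajb11 and Dnajb5 were called lower (background 1.12%), and with median-of-ratios factors 0 were (background 0.281%).

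The fitted values leaned to the lower side. Of the 42 members, 33 had a negative log2 fold change (GFP-GR100 relative to GFP), and the family's median was -0.11, while 54.6% of all tested genes were below 0 and their median was -0.02. Abundant genes in general lay lower: among genes with a mean of at least 10 CPM, 66.9% were below 0 with a median of -0.06, against 30 of the 35 members in that range and a median of -0.12. The 8 members at an unadjusted p under 0.05 were all in that range, where the background was 10.3% lower. On the RPKM scale the family's median was -0.04 and that of all genes 0.04, so both moved up and the distance between them stayed at -0.08, near the -0.09 of the main fit.

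For 8 members, all 4 GFP-GR100 libraries lay below all 4 GFP libraries in CPM, and for 0 members above. This is 19.0% of the tested members, against backgrounds of 3.03% below and 5.03% above over all tested genes, and of 3.85% below among genes of at least 10 CPM. The 8 were Dnaja1, Dnaja3, Dnaja4, Dnajb1, Dnajb11, Dnajb12, Dnajc3 and Dnajc15. The separation of these genes changed with how libraries are scaled. In deposited RPKM it held for 2 of them, Dnaja4 and Dnajc15. With totals that leave out the rRNA loci it held for 4, Dnaja3, Dnajb1, Dnajb11 and Dnajc3. Median-of-ratios scaling kept all 8. The share of all genes with no overlap is not given at these scalings, so these counts have no background beside them.

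**Figure D2:**
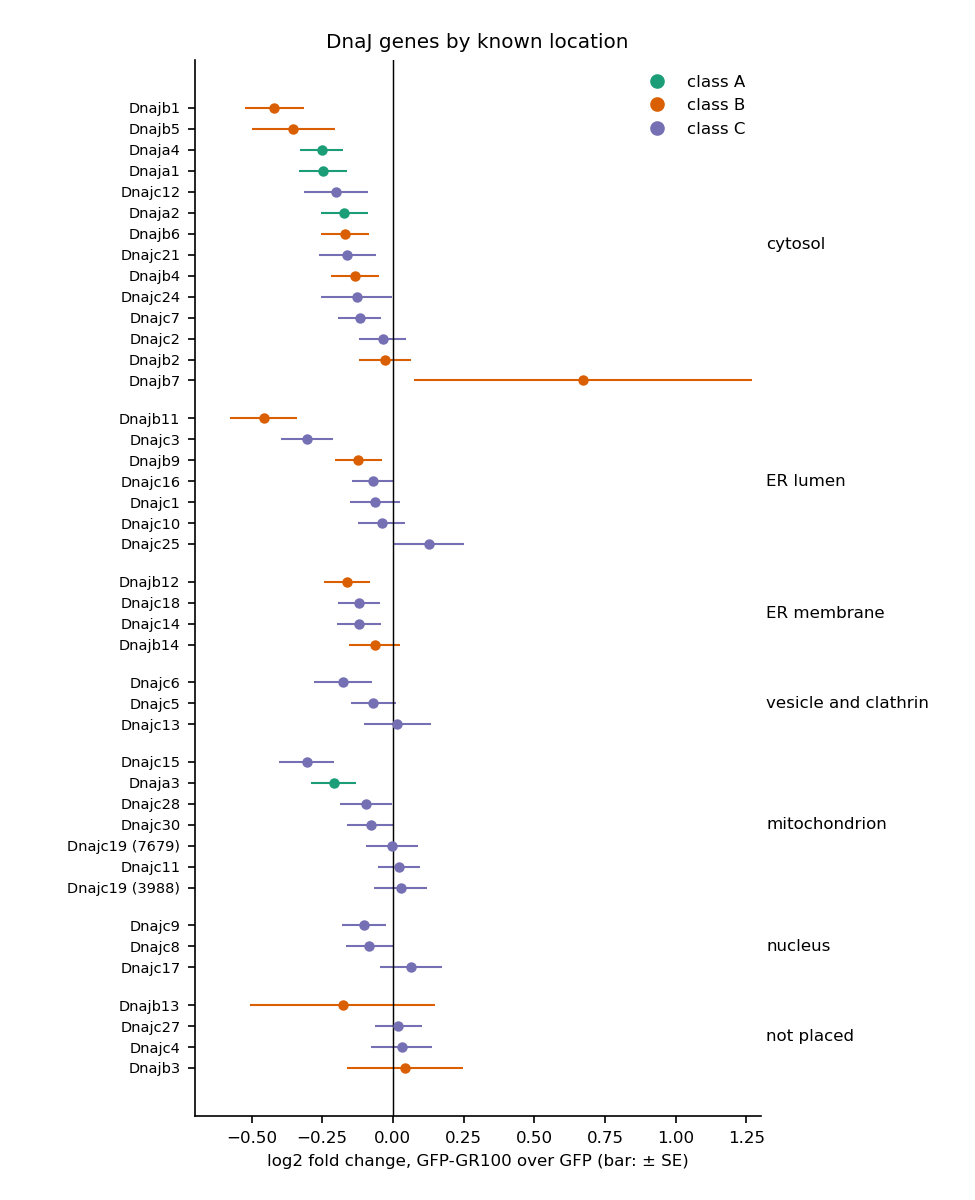
Fitted log2 fold change, GFP-GR100 relative to GFP, with its standard error for the 42 tested DnaJ rows, grouped by the known location of the protein and coloured by class. Most points lie left of 0, with Dnajb11 and Dnajb1 lowest at -0.46 and -0.42, and 0 members passed the test.

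The classes can be set side by side as a description. In class A, 4 of 4 tested genes were below 0 on the log2 scale, and their median was -0.23 and a range from -0.25 to -0.17. In class B, 10 of 12 were below 0, with a median of -0.15 and a range from -0.46 to 0.67. In class C, 19 of 26 were below 0, with a median of -0.07 and a range from -0.31 to 0.13. The 8 genes whose groups did not overlap were 3 of 4 in class A, 3 of 12 in class B and 2 of 26 in class C. The background was 3.03% of all tested genes and 3.85% of genes of at least 10 CPM. The order of these medians, A lowest and C nearest to 0, was the same in each sex, at -0.16, -0.15 and -0.07 in females and -0.29, -0.11 and -0.07 in males. The median was -0.02 for all tested genes and -0.06 for genes of at least 10 CPM, so class C lay near the latter. The difference between classes was not tested.

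By location, the cytosolic members had a median log2 fold change of -0.17, with 13 of 14 below 0, and the ER members had a median of -0.12, with 10 of 11 below 0. Among the ER members, the 7 with a J domain in the lumen had a median of -0.07 and the 4 membrane proteins whose J domain faces the cytosol a median of -0.12. Mitochondrial members had a median of -0.08 over 7 rows, vesicle and clathrin members -0.07 over 3, and nuclear members -0.08 over 3. The 4 tested members that were not placed had a median of 0.03, with 1 of 4 below 0. At an unadjusted p under 0.05, 4 of 14 cytosolic, 2 of 11 ER and 2 of 7 mitochondrial rows were lower, against the background of 7.37% given above. In summed RPKM the cytosolic members were at 259.6 ± 23.0 in GFP and 236.6 ± 11.0 in GFP-GR100, and the ER members at 135.1 ± 5.21 and 126.2 ± 7.49, and the ranges of the groups overlapped for both. For all tested genes the median was -0.02 with 54.6% below 0, and for genes of at least 10 CPM it was -0.06 with 66.9%. The luminal, vesicle, mitochondrial and nuclear medians lay near -0.06. On the RPKM scale 7 of 11 ER and 11 of 14 cytosolic members were below 0, with medians of -0.05 and -0.10. The luminal members there had 4 of 7 below 0 and a median of -0.0031, and all genes a median of 0.04. The ER and cytosolic members thus leaned the same way, with no test of their difference.

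The cytosolic genes that work with Hsc70 came first. Dnajb1, on chromosome 8 from 83608175 to 83611902 in mm10, whose product pairs with Hsp70 and Hsp110 to take apart aggregates, was at 55.8, 67.6, 61.7 and 67.6 CPM in GFP 1 to 4 and at 51.8, 45.3, 52.1 and 39.8 CPM in GFP-GR100 1 to 4. All GFP-GR100 libraries were thus below all GFP libraries, and the gap between the groups was small beside the spread within them. The fitted log2 fold change was -0.42 (SE 0.11, edgeR adjusted p = 0.0610), a mean level 25.2% lower. The adjusted p was 0.0158 with DESeq2 and 0.0356 without GFP 1 (background 0.235% called lower), and it went up to 0.287 when other single libraries were left out.

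Dnaja1 and Dnaja4 encode class A partners of Hsc70. Dnaja1 was at 185, 174, 201 and 208 CPM in GFP and at 169, 147, 172 and 157 CPM in GFP-GR100. The lowest GFP library, GFP 2, was only just above the highest GFP-GR100 library. Dnaja4 was at 55.1, 51.7, 57.3 and 60.6 CPM in GFP and at 47.9, 43.0, 49.2 and 48.4 CPM in GFP-GR100, again with no overlap. Their log2 fold changes were -0.25 (SE 0.08, edgeR adjusted p = 0.182) and -0.25 (SE 0.08, edgeR adjusted p = 0.130). The listed span of Dnaja4 overlaps Wdr61 by 1581 bases, and that of Dnaja1 overlaps Smu1 by 608 bases. Dnaja2 overlapped between the groups, with 186, 173, 199 and 209 CPM in GFP and 175, 153, 180.4 and 171 CPM in GFP-GR100.

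Other cytosolic members had smaller or noisier values. Dnajb5 had a log2 fold change of -0.35 (SE 0.15, edgeR adjusted p = 0.283). Its values ran from 141 to 207 CPM in GFP and from 103 to 181 CPM in GFP-GR100, so the groups overlapped widely. Dnajb6, whose product suppresses polyglutamine aggregation and whose promoter held the full heat shock element, was at 80.4 ± 4.84 and 71.4 ± 6.53 CPM, a log2 fold change of -0.17. Dnajb2, a neuron-enriched J protein with ubiquitin-interacting motifs, was at 99.4 ± 11.5 and 97.3 ± 10.4 CPM. Dnajc7, which also binds Hsp90 through its tetratricopeptide repeats, was at 145.5 ± 9.86 and 133.9 ± 5.57 CPM, and it overlaps the myelin gene Cnp in the table. Dnajc2, the ribosome-associated J protein, was at 31.4 ± 0.486 and 30.6 ± 2.59 CPM, and Dnajc21, which acts in maturation of the large ribosomal subunit, at 24.2 ± 2.05 and 21.7 ± 2.70 CPM.

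Dnajb7 had the largest absolute log2 fold change, 0.67 (SE 0.60, edgeR adjusted p = 0.598). It was at 0.181, 0.0540, 0.0666 and 0.0496 CPM in GFP and at 0.0547, 0.139, 0.142 and 0.219 CPM in GFP-GR100, where 3 counts correspond to between 0.0337 and 0.0455 CPM on unscaled library totals. The groups overlapped, and the gene lies within Xpnpep3, so its few reads cannot be told apart from those of the host gene without strand.

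In the ER lumen, Dnajb11 and Dnajc3 had the lowest log2 fold changes of the 7 members. Dnajb11, on chromosome 16 from 22857845 to 22879634, binds unfolded proteins and hands them to BiP. It was at 49.0, 48.8, 73.1 and 76.1 CPM in GFP and at 47.1, 41.2, 44.3 and 43.4 CPM in GFP-GR100. The GFP males were far above all other libraries, while the GFP females lay just above the highest GFP-GR100 library. The log2 fold change was -0.46 (SE 0.12, edgeR adjusted p = 0.0682), with an adjusted p of 0.0157 by DESeq2 and 0.0341 without GFP-GR100 1 (background 0.3% called lower), and up to 0.290 when other single libraries were left out.

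Dnajc3, on chromosome 14 from 118937932 to 118981702, assists BiP and inhibits the kinases PERK and PKR. It was at 65.8, 56.2, 56.5 and 64.3 CPM in GFP and at 53.8, 49.5, 43.3 and 50.4 CPM in GFP-GR100. All GFP-GR100 libraries were below all GFP libraries, and the log2 fold change was -0.30 (SE 0.09, edgeR adjusted p = 0.124). Dnajb9 (ERdj4), which restrains the stress sensor IRE1, was at 34.5 ± 1.89 and 31.7 ± 2.44 CPM, and Dnajc10 (ERdj5), a disulfide reductase of ER-associated degradation, at 74.6 ± 8.33 and 72.3 ± 2.92 CPM. Dnajc1, Dnajc16 and Dnajc25 had log2 fold changes of -0.06, -0.07 and 0.13. The listed span of Dnajc25 overlaps Gm20503 by 22364 bases, with a mean count of 2660 for Gm20503 and 358 for Dnajc25. That of Dnajc1 overlaps Mllt10 by 16735 bases, with mean counts of 2580 for Mllt10 and 2390 for Dnajc1.

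Of the ER membrane proteins, Dnajb12 recruits Hsc70 to the cytosolic face for quality control. It was at 41.4, 42.3, 44.6 and 48.2 CPM in GFP and at 41.1, 40.8, 37.6 and 38.1 CPM in GFP-GR100. The groups touched closely between GFP 1 and GFP-GR100 1, and the log2 fold change was -0.16 (SE 0.08, edgeR adjusted p = 0.357). Its relative Dnajb14 was at 120.2 ± 27.0 and 113.7 ± 14.5 CPM, and Dnajc14 and Dnajc18 had log2 fold changes of -0.12 each.

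Among mitochondrial members, Dnajc15 (MCJ), an inner-membrane protein that restrains respiratory complex I, was at 23.6, 21.9, 26.2 and 23.1 CPM in GFP and at 19.6, 15.5, 21.2 and 20.7 CPM in GFP-GR100. The groups did not overlap in CPM or in RPKM, and the log2 fold change was -0.31 (SE 0.10, edgeR adjusted p = 0.150). Dnaja3 (Tid1), the class A protein of the matrix, was at 66.6, 65.1, 72.7 and 75.9 CPM in GFP and at 63.4, 60.2, 59.5 and 59.0 CPM in GFP-GR100. Its log2 fold change was -0.21 (SE 0.08, edgeR adjusted p = 0.237), and its listed span overlaps Coro7 and Vasn. Dnajc11, Dnajc28 and Dnajc30 had log2 fold changes of 0.02, -0.10 and -0.08. Dnajc19, a subunit of the inner-membrane import motor, is uncertain because its rows overlap, and how reads were counted between them is not known. The row with the higher RPKM was at 13.6, 11.8, 14.3 and 14.7 CPM in GFP and at 12.9, 12.6, 16.3 and 13.8 CPM in GFP-GR100, with overlapping groups. Another row, named DNAJC19 and not matched by the symbol rule, overlaps both Dnajc19 rows by 2527 bases. Both Dnajc19 rows enter the RPKM sums of the family and of class C, so this locus may be counted more than once there.

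**Figure D3:**
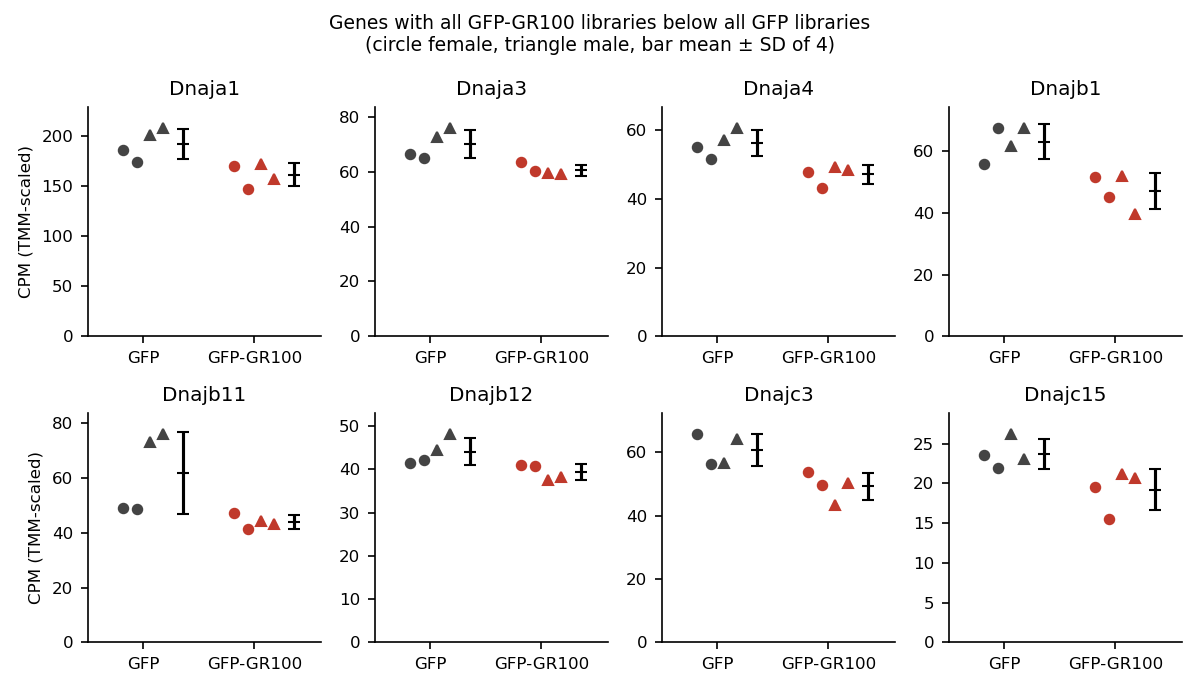
TMM-scaled CPM per library of the 8 DnaJ genes whose groups did not overlap, where the marker shape gives the sex (circle female, triangle male) and bars give mean ± SD of 4 libraries, on axes that start at 0. The GFP males stand highest for Dnajb11, at 73.1 and 76.1 CPM.

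Vesicle and nuclear members showed small differences. Auxilin (Dnajc6) was at 327, 267, 217 and 282 CPM in GFP and at 262, 266, 230.1 and 209.5 CPM in GFP-GR100, a log2 fold change of -0.18 (SE 0.10, edgeR adjusted p = 0.422). Cysteine string protein (Dnajc5) was at 458, 462, 435 and 466 CPM in GFP and at 442, 440.2, 435 and 418 CPM in GFP-GR100, a log2 fold change of -0.07 (SE 0.08, edgeR adjusted p = 0.689). Both overlapped between the groups. Dnajc13, an endosomal protein, was at 60.5 ± 17.8 and 59.6 ± 5.38 CPM, with a wide spread in GFP.

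Dnajc9, a histone chaperone, was at 21.9, 22.2, 27.1 and 25.2 CPM in GFP and at 20.6, 19.6, 25.0 and 24.9 CPM in GFP-GR100, lower in females than in males of both groups. Dnajc27, a small GTPase with a J domain, was at 174, 172, 151 and 156 CPM in GFP and at 156, 166, 162 and 174 CPM in GFP-GR100, with no direction. The ciliary gene Dnajb13 was at 0.297, 0.324, 0.566 and 0.484 CPM in GFP and at 0.372, 0.152, 0.491 and 0.468 CPM in GFP-GR100. Its groups overlapped, while the summed level of 8 ependymal and cilium markers ran from 19.4 to 29.2 CPM in GFP and from 15.8 to 18.0 CPM in GFP-GR100, and 2 of these 8 were called lower. The part of such cells in the level of Dnajb13 was not tested.

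The next comparison asked whether the effect differs between the sexes. No member was called for the product of sex and group (0 of 42 by edgeR, with a background of 0.0524% of all tested genes), and 2 had an unadjusted p under 0.05, against a background of 16.4%. These were Dnajb11 and Dnajc13. Dnajb11 had a log2 fold change of -0.15 (SE 0.10) in females and -0.77 (SE 0.10) in males, a difference of -0.62 (edgeR unadjusted p = 0.000915, adjusted p = 0.104). Dnajc13 was at -0.21 in females and 0.25 in males (edgeR unadjusted p = 0.0311, adjusted p = 0.257).

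Within males, Dnajb1 and Dnajb11 passed the test (edgeR adjusted p = 0.0487 and 0.00170), where 3.78% of all genes were called lower. Within females 0 members passed, where only 11 of 20987 genes were called lower. The sex difference cannot be told apart from the rRNA share, which was high in GFP females and GFP-GR100 males and low in the other 4 libraries. With that share as a covariate, Dnajb1 and Dnajb11 were called lower over all libraries (edgeR adjusted p = 0.0281 and 0.00544, background 1.08%). Over the family, 27 of 42 members were below 0 in both sexes, and the median was -0.11 in females and -0.11 in males. Of all tested genes 30.1% were below 0 in both sexes, and their median was -0.04 in females and 0.0026 in males. Relative to all genes, the family's median was -0.07 in females and -0.11 in males.

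**Figure D4:**
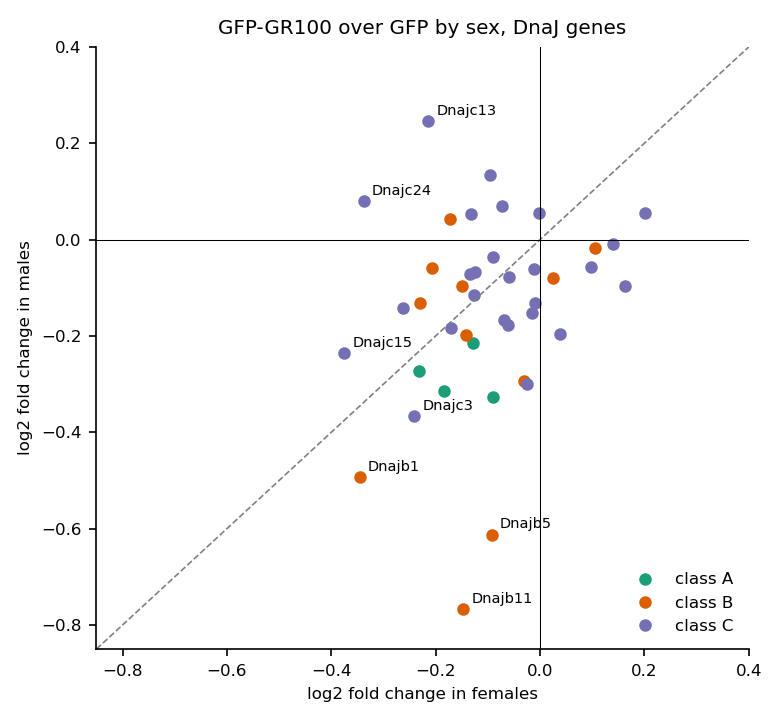
Fitted log2 fold change, GFP-GR100 relative to GFP, in females (horizontal) and males (vertical) for the tested DnaJ genes without Dnajb7, coloured by class, with a dashed line where both are equal. Dnajb11 lies farthest below the line, at -0.15 in females and -0.77 in males.

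Single libraries carried different weight. Of the 42 members, 21 had their lowest GFP-GR100 value in GFP-GR100 2 (50.0%, against 26.2% of all tested genes), and 14 had their highest GFP value in GFP 4 (33.3%, against 15.3% of all tested genes). Of the 8 genes whose groups did not overlap, 6 were highest in GFP 4. Without GFP 4 the median of the family was -0.07, and without GFP-GR100 2 it was -0.06, while the median of all tested genes moved from -0.02 to 0.0040 and 0.0027. Relative to all genes, the family's median was -0.086 with all libraries, -0.077 without GFP 4 and -0.065 without GFP-GR100 2. Without GFP 2, the library with cerebellar markers, the median was -0.11, 0 members were called and 11 had no overlap. Leaving out a library cannot undo a separation at the same scaling. That the same 8 were among these 11 is therefore no check on GFP 2.

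Other genes of the Hsp70 cycle were set beside the family, and some of them passed the test. Of 34 listed genes, 4 of which are J proteins under other symbols, 5 fell and 0 rose by edgeR, against 0.324% of all tested genes called lower and 2.19% called higher. On the log2 scale 30 of the 34 lay below 0, with a median of -0.14, against 54.6% of all tested genes and 66.9% of genes of at least 10 CPM. By list, 11 of 11 Hsp70 proteins, 11 of 13 nucleotide exchange factors, 6 of 6 adaptor and Hsp90 genes and 2 of 4 J proteins under other symbols were below 0. The call counts of the lists below have the same background of 0.324% called lower. Of 11 Hsp70 proteins, 2 fell, the cytosolic and the ER partner of the J proteins described above. The mitochondrial partner Hspa9 was not called, with a log2 fold change of -0.17 (SE 0.08, edgeR adjusted p = 0.329). Hspa8 (Hsc70) was at 666, 683, 819 and 969.8 CPM in GFP and at 576, 472, 502 and 463 CPM in GFP-GR100, with no overlap (log2 fold change -0.63, SE 0.12, edgeR adjusted p = 0.0139). Hspa5 (BiP) was at 267, 282, 353 and 490.3 CPM in GFP and at 233, 178, 189 and 182 CPM in GFP-GR100 (log2 fold change -0.80, SE 0.17, edgeR adjusted p = 0.0456). For Hspa5 and Hspa8, as for Dnajb11, the GFP males were higher than the GFP females. Within males the edgeR adjusted p was 0.00283 for Hspa5 and 0.00218 for Hspa8, and within females 0.437 and 0.348. In males 3.78% of all genes were called lower, and in females 11 of 20987 genes were. Without single libraries the adjusted p of Hspa5 went up to 0.181 and that of Hspa8 to 0.0806.

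Of 13 nucleotide exchange factors, which release ADP from Hsp70, 1 fell. Hsph1 (Hsp110), the partner of Dnajb1 in disaggregation, was at 336, 310.4, 336 and 427 CPM in GFP and at 286, 241, 229 and 246 CPM in GFP-GR100 (log2 fold change -0.49, SE 0.11, edgeR adjusted p = 0.0398). Of 6 adaptor and Hsp90 genes, 2 fell. Stip1, which links Hsp70 to Hsp90, had a log2 fold change of -0.46 (SE 0.10, edgeR adjusted p = 0.0364), and Hsp90b1, the Hsp90 of the ER, of -0.43 (SE 0.10, edgeR adjusted p = 0.0298). Of the 4 J proteins under other symbols, 0 passed by edgeR and 0 had an unadjusted p under 0.05. As a list they lay on both sides of 0, with 2 below and 2 above. Gak, the widely expressed relative of auxilin, had the smallest p among them and was at 110.5 ± 6.99 and 99.2 ± 16.2 CPM. The calls for Hsph1, Stip1 and Hsp90b1 were lost without some single libraries, with adjusted p up to 0.175, 0.184 and 0.168. Within males their edgeR adjusted p was 0.0105, 0.00766 and 0.0121, and within females 0.507, 0.519 and 0.423. The backgrounds within each sex are those given for Hspa5 and Hspa8.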

How the data were processed

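Counts and RPKM per gene in 8 libraries were used as deposited. For the authors' counts and RPKM, the submitters' processing notes name mm10, TopHat2 version 2.1.0, CASAVA, R version 3.4.1 and DESeq2, without their roles. Libraries were paired-end from a stranded total RNA kit, per the labels' protocols. The sources used here do not say which program counted reads, on which annotation and whether by strand, and 21 of the 44 members overlap another listed gene. The deposited RPKM are scaled by listed length and by library total including rRNA loci, and were used to compare levels between genes. Positions are as the authors listed them, on mm10.

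Counts were filtered with filterByExpr (minimum count 10, minimum total 15), scaled by TMM and tested with the robust quasi-likelihood test of edgeR version 4.0.16 in R version 4.3.3, with sex and group in the model, 20987 genes and a Benjamini-Hochberg threshold of 0.05. Each SE is the absolute log2 fold change divided by the square root of F. Alternatives used DESeq2 version 1.42.0, limma version 3.58.1 (voom, and trend on log2(RPKM + 0.1)), other scalings, filters and covariates, and omission of libraries. The tests were also checked on simulated data. Animals are the replicates, numbered in accession order, which pairs none. Counts of 3 correspond to 0.0337 to 0.0455 CPM.

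Members, lists and alternatives were chosen with earlier results of these data known. Locations are textbook assignments. Values per library are given for members with the smallest p in a class or location, the 6 highest mean RPKM, the 3 largest absolute log2 fold changes, the smallest interaction p, or no overlap between groups, and for up to 3 called genes, or the smallest p, of each partner list.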

Additional observations from a re-analysis of the deposited data

Results flagged for a closer look

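In 3 of 84 groups of 4 libraries (42 tested members in each group), 1 library lay far from the other 3, by a gap whose share of the group's range is above Dixon's 95% critical value. Chance flags about 1 in 20 such groups. Dnajb2 was at 112.7 CPM in GFP-GR100 4 and between 90.8 and 94.2 CPM in the other GFP-GR100 libraries. Dnajc10 was at 76.7 CPM in GFP-GR100 1 and between 70.4 and 71.1 CPM in the others. Dnajb7 was at 0.181 CPM in GFP 1 and between 0.0496 and 0.0666 CPM in the other GFP libraries, a difference of a few counts.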

How the results depend on the processing

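The count of members called lower, 0 by edgeR, was 3 with no filter on low counts (Dnajb1, Dnajb11 and Dnajb5), 2 with DESeq2, with the rRNA share as covariate or in males only, and between 0 and 1 when single libraries were left out. It was 0 with median-of-ratios factors, a mean of at least 1 CPM, no sex covariate, limma-voom, limma-trend on RPKM, females only, and without GFP 3 and GFP-GR100 4. Members called higher were 0 in each of these settings, and members called for the sex difference were also 0 with median-of-ratios factors and with limma-voom, the alternatives run for it. The count of members with no overlap, 8, was 2 on RPKM and 4 with totals without the rRNA loci. It was 14 without GFP 3 and GFP-GR100 4 and 11 without GFP 2, where groups of fewer libraries separate more easily. The share of all genes with no overlap is not given for these settings, so the counts cannot be compared with the 8. These settings were chosen after seeing the data. The class C median was -0.0353 with a mean of at least 1 CPM, -0.00764 on RPKM, -0.0441 without GFP 3 and GFP-GR100 4, and between -0.0863 and -0.0340 when single libraries were left out. The class B median lay between -0.166 and -0.0748 when single libraries were left out, and the mitochondrial median was 0.0185 without GFP 3 and GFP-GR100 4. Over the 19 settings, between 27 and 35 members were below 0 and the family's median less that of all genes lay between -0.12 and -0.06. Genes of the Hsp70 cycle lists called lower, 5 in all libraries, were 7 with the rRNA share as covariate and in males only. With no filter on low counts there were 6. In these settings 1.08%, 3.78% and 1.12% of all genes were called lower, against 0.324% in the main fit. The count was 5 with median-of-ratios factors (background 0.281%), DESeq2 (0.953%) and limma-voom (0.272%). It was 3 with a mean of at least 1 CPM (36 of 16462 genes called lower) and 2 with no sex covariate (35 of 20987). It was 0 on RPKM (30 of 20987) and in females only (11 of 20987). It was 2 without GFP 3 and GFP-GR100 4 (115 of 20973). Without single libraries it lay between 0 and 5, where between 19 and 77 of all genes were called lower. It was 0 without GFP-GR100 2 (19 of 21238) and without GFP-GR100 3 (19 of 21254). The main fit called 68 of 20987 genes lower. Of the values of 16 named members over the settings, 284 kept direction and side of the threshold, 10 passed it (Dnajb1 and Dnajb11, 5 each) and 8 changed sign: Dnajb7 (-0.25), a Dnajc19 row (-0.0016) and Dnajc27 (-0.10) in females only, Dnajc27 also without GFP 3 and GFP-GR100 4 (-0.0128), and, without single libraries, Dnajb13 (between -0.407 and 0.0370), Dnajc19 (between -0.0293 and 0.0735) and Dnajc27 (between -0.0234 and 0.0850). No paired analysis was possible because the labels give no replicate numbers that link animals across groups. The cause of these changes was not tested. With 4 animals a group, standard errors of the members above 1 CPM lay between 0.07 and 0.21 on the log2 scale.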
